A study of Homo sapiens with 8 samples.

Results

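The NDRG family, named after N-MYC downstream regulated gene, has 4 human members, and 3 of them could be read here: NDRG1, NDRG3 and NDRG4. A member was taken from a row of the deposited table that the platform annotation gives exactly 1 gene symbol, and each of these 3 genes had 1 such row among 33458 genes. Where several rows name a gene, the rule keeps the one selected on the highest mean signal over the 8 samples, a choice that did not arise for the members. The only row that names NDRG2 also names the microRNA gene MIR6717, so NDRG2 was not analysed here. The family was proposed with earlier results of these data known, among them the difference of NDRG1 between the conditions. That difference is therefore given as a description, and none of its p-values is independent support.

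RNA came from LN229, an established human glioblastoma cell line, in 8 samples, 4 titled 23 Pa CSS and 4 titled no CSS, where CSS is compressive solid stress applied for 18 h. All cells were grown in Transwell inserts with a polyester membrane. The compressed wells carried an agar cushion loaded with steel discs and the control wells carried neither, so the comparison is of cushion and load together. Each sample's source name and description contradict its title: samples titled no CSS are described as compressed, and samples titled 23 Pa CSS as uncompressed. Groups follow the titles, each difference has the samples titled no CSS subtracted from those titled 23 Pa CSS, and every sign turns if the other labels are right.

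NDRG proteins have the fold of the alpha/beta hydrolases but lack the catalytic residues of these enzymes. NDRG1 is a classic gene of the response to low oxygen, transcribed through hypoxia-inducible factors, and it also responds to loss of iron and to differentiation. MYC and N-MYC repress it, and the kinases SGK1 and GSK3B phosphorylate its protein. NDRG3 protein is degraded in normal oxygen after prolyl hydroxylation and is stabilised by lactate, so its level in a cell need not follow its RNA. NDRG4 is best known from heart and neurons. Only RNA was measured here.

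Values are log2 signal per transcript cluster, the array's unit for the RNA of 1 gene locus. Antigenomic background probes, which match no human sequence, averaged 4.18 ± 0.0528 in the samples titled 23 Pa CSS and 4.03 ± 0.126 in those titled no CSS (SD, n = 4 each). Spike-in RNA also differed: labelling controls averaged 7.85 ± 0.139 in the samples titled 23 Pa CSS and 7.30 ± 0.299 in those titled no CSS, and hybridisation controls 10.51 ± 0.125 and 10.20 ± 0.177. A change is called where limma, fitted over 135750 transcript clusters, gave a Benjamini-Hochberg adjusted p under 0.05. Levels of different genes are not ranked against each other, since each has its own probes, and fold changes on an array tend to understate changes in RNA.

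NDRG1 (transcript cluster TC0800011881.hg.1, gene on chromosome 8) read 9.45, 9.16, 9.18 and 9.50 in replicates 1 to 4 titled 23 Pa CSS. In the samples titled no CSS it read 7.15, 6.72, 6.61 and 6.23. The groups lay far apart, with a gap of 2.02 between the lowest sample titled 23 Pa CSS and the highest titled no CSS, while the ranges within the groups were 0.34 and 0.91. The means were 9.32 ± 0.178 titled 23 Pa CSS and 6.68 ± 0.376 titled no CSS (SD, n = 4 each). The difference was 2.65 (SE 0.209, limma 95% interval 2.19 to 3.10, adjusted p = 0.00114), or 6.26-fold. Only 3 of the 33458 genes had a larger rise. Against the mean titled no CSS, the single samples titled 23 Pa CSS stood 6.83-fold, 5.6-fold, 5.66-fold and 7.09-fold higher. NDRG1 was above the antigenomic background in both groups, by 5.15 titled 23 Pa CSS and by 2.65 titled no CSS. The sample with the lowest NDRG1, titled no CSS replicate 4, also had the lowest background mean of the 8, 3.85. Without that sample the NDRG1 difference was 2.50 (limma adjusted p = 0.00902).

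**Figure D1:**
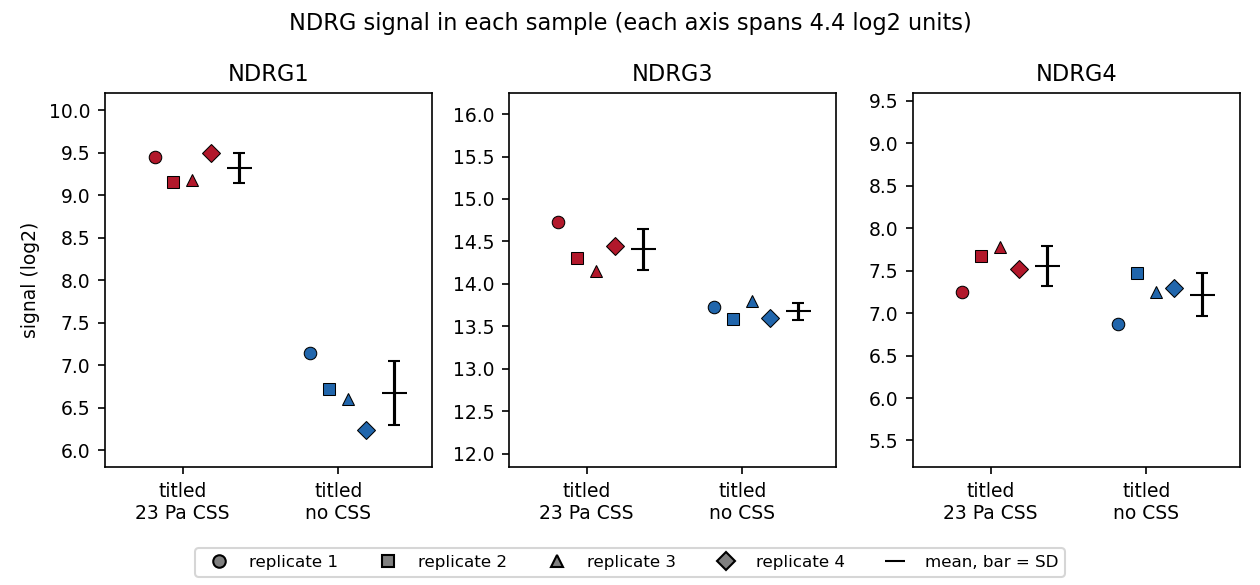
Log2 signal of NDRG1, NDRG3 and NDRG4 (vertical axes, equal spans) in the samples titled 23 Pa CSS (red, left) and titled no CSS (blue, right), with 1 symbol per replicate and black bars for mean and SD of 4 samples. The groups do not overlap for NDRG1, with a gap of 2.02, or for NDRG3, with a gap of 0.35, and they overlap for NDRG4.

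NDRG3 (TC2000009014.hg.1, chromosome 20) read 14.73, 14.31, 14.15 and 14.44 in replicates 1 to 4 titled 23 Pa CSS, against 13.72, 13.59, 13.80 and 13.60 titled no CSS. Here too every sample titled 23 Pa CSS lay above every sample titled no CSS, but the gap was only 0.35. The means were 14.41 ± 0.246 titled 23 Pa CSS and 13.68 ± 0.0988 titled no CSS (SD, n = 4 each). The difference of 0.73 (SE 0.173, limma 95% interval 0.35 to 1.11), or 1.66-fold, missed the threshold with an adjusted p of 0.0572 and an unadjusted limma p of 0.00137. Replicate 1 titled 23 Pa CSS was the highest, 2.07-fold over the mean titled no CSS, and replicate 3 the lowest, 1.38-fold over it. Without that replicate 3 the difference was 0.81 and passed (adjusted p = 0.0351). It also passed with a prior that follows signal (adjusted p = 0.0203) and among transcript clusters above the median signal (adjusted p = 0.0369). The spike-in levels given above moved the same way. On arrays centred on the hybridisation controls, the difference was 0.42 (adjusted p = 0.214).

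NDRG4 (TC1600008034.hg.1, chromosome 16) read 7.24, 7.67, 7.78 and 7.52 in replicates 1 to 4 titled 23 Pa CSS, against 6.87, 7.47, 7.24 and 7.29 titled no CSS. The groups overlapped: replicate 1 titled 23 Pa CSS lay below replicates 2 and 4 and level with replicate 3 titled no CSS. The means were 7.55 ± 0.232 titled 23 Pa CSS and 7.22 ± 0.251 titled no CSS (SD, n = 4 each). The difference of 0.34 (SE 0.190, limma 95% interval −0.08 to 0.75) did not pass (adjusted p = 0.432). The interval still allows a rise of up to 1.68-fold or a small fall. Its size depended on scaling, at 0.52 after quantile normalization (adjusted p = 0.192) and 0.02 on arrays centred on hybridisation controls (adjusted p = 0.959). NDRG4 signal lay 3.38 above the antigenomic background titled 23 Pa CSS and 3.19 above it titled no CSS.

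**Figure D2:**
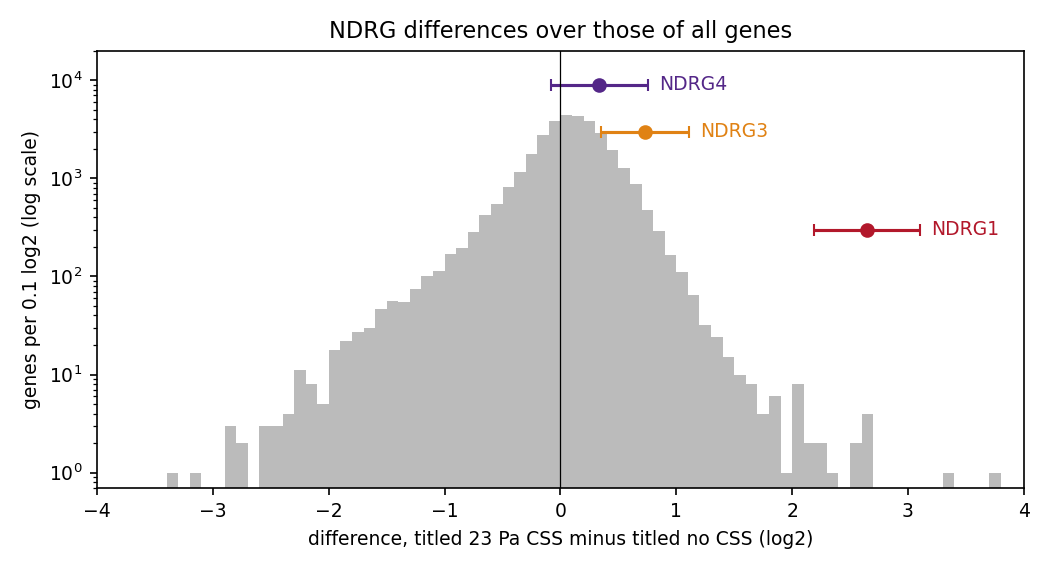
Difference of NDRG1, NDRG3 and NDRG4 between titles (points, horizontal axis in log2 units, with limma 95% intervals) over a histogram of the same difference in all 33458 genes (grey, genes per 0.1 log2, logarithmic vertical axis). The heights of the points carry no value. NDRG1 stands at 2.65, beyond almost all genes, while NDRG3 at 0.73 and NDRG4 at 0.34 lie on the right flank of the histogram.

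Of the 3 members, NDRG1 rose, and NDRG3 and NDRG4 did not pass. Among all genes 1.36% rose, and nothing is read from 1 of 3, since NDRG1 was known. Groups did not overlap in the upward direction for 2 of 3 members, where 9.11% of all genes were so placed, and larger differences than that of NDRG3 were found in 1075 genes. Among the samples titled 23 Pa CSS, replicates 1 and 4 were the highest for both NDRG1 and NDRG3. For NDRG4 these replicates were the lowest, and replicate 3, the lowest for NDRG3, was the highest.

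The members were also set against each other within samples, by subtracting the log2 signal of NDRG3 or NDRG4 from that of NDRG1. This removes a log2 shift shared by all genes of an array, but not one that depends on signal. The NDRG1 minus NDRG3 value was 1.92 larger on average in the samples titled 23 Pa CSS than in those titled no CSS, and the NDRG1 minus NDRG4 value 2.31 larger. Whichever sample was left out, the first lay between 1.80 and 2.06 and the second between 2.14 and 2.58. After quantile normalization the first was 2.08 and the second 2.26. Both are carried by the difference of NDRG1, which was known when the family was proposed, so they are a description with no test.

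Genes with a pattern like that of a member were ranked by the root-mean-square distance over the 8 samples, after each gene was centred on its own mean, among 24482 genes above the background mean in both groups. Nearest to NDRG1 was AK4, a mitochondrial adenylate kinase, at a distance of 0.158. AK4 read 11.92, 11.93, 12.08 and 12.01 titled 23 Pa CSS and 10.03, 9.41, 9.33 and 9.12 titled no CSS. Like NDRG1 it was highest in replicate 1 and lowest in replicate 4 of the samples titled no CSS. The hybridisation controls had the same extremes there, at 10.38 in replicate 1 and 9.97 in replicate 4, and labelling controls and antigenomic background were also lowest in replicate 4, at 6.92 and 3.85. The part of these levels in the likeness was not tested. ALDOC, a glycolytic aldolase, followed at 0.178 and SLC2A1, a glucose transporter, at 0.283. BNIP3P1, a pseudogene that may share sequence with BNIP3, lay at 0.309 and SLAMF9, an immunoglobulin-superfamily receptor, at 0.311. ALDOC read 10.20, 10.13, 9.94 and 9.43 titled no CSS, so it too was highest in replicate 1 and lowest in replicate 4 there. The distance takes in the difference between titles as well as the pattern of samples within a title. A gene with no difference between titles could not lie this near to NDRG1. That difference was 2.51 for AK4 and 2.54 for ALDOC, beside the 2.65 of NDRG1.

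**Figure D3:**
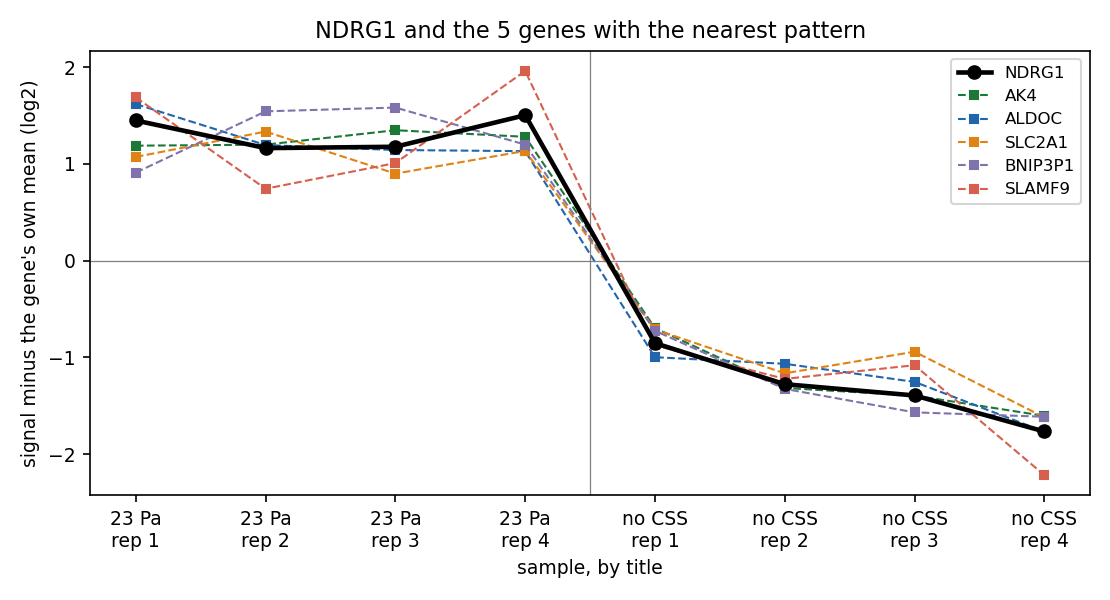
Log2 signal minus each gene's own mean over 8 samples (vertical axis) for NDRG1 (black) and the 5 genes nearest to it, by sample (horizontal axis, titled 23 Pa CSS left of the line, titled no CSS right). Lines join samples only to guide the eye. All 6 genes lie above their mean in the 4 samples titled 23 Pa CSS and below it in the 4 titled no CSS, and AK4 follows NDRG1 most closely, at a distance of 0.158.

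Nearest to NDRG3 were the small nucleolar RNA gene SNORD119 at 0.0564, SLC75A1 at 0.062 and DNAJA3, a mitochondrial co-chaperone, at 0.0645. Their differences were 0.79 (limma adjusted p = 0.0416), 0.78 (adjusted p = 0.0579) and 0.63 (adjusted p = 0.0811). SNORD119 read 9.75, 9.35, 9.20 and 9.45 in replicates 1 to 4 titled 23 Pa CSS, which is the order of NDRG3 in those samples, against 8.68, 8.67, 8.72 and 8.53 titled no CSS. Nearest to NDRG4 were the pseudogene COX4I1P2 at 0.0822, the microRNA gene MIR3945 at 0.0853 and NDUFA6-DT, a divergent transcript, at 0.0982. None of these 3 passed, with adjusted p between 0.384 and 0.599. COX4I1P2 read 5.23, 5.73, 5.74 and 5.42 in replicates 1 to 4 titled 23 Pa CSS. In those titled no CSS it read 4.78, 5.30, 5.14 and 5.39. Like NDRG4 it was lowest in replicate 1 of either title. What lies behind this shared variation between samples was not tested.

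Hypoxia-induced genes, the class to which NDRG1 belongs, rose in most cases. Of 28 measured, 20 rose, 0 fell and 8 did not pass, against 2.32% of all genes called in either direction, and their median difference was 1.38 against 0.0938 over all genes. The list was drawn up with these results known. The largest rises were in ADM, which encodes the peptide adrenomedullin, ALDOC and SLC2A1. ADM averaged 9.42 ± 0.109 titled 23 Pa CSS and 6.78 ± 0.398 titled no CSS (SD, n = 4 each), a difference of 2.64 beside the 2.65 of NDRG1 (limma adjusted p = 0.00114 for both). Among the smallest rises, BNIP3L, a mitophagy receptor, and KDM3A, a histone demethylase, differed by 1.07 and 0.87 (adjusted p = 0.0278 and 0.041). ANGPTL4, which encodes a lipase inhibitor, passed at 0.73 (adjusted p = 0.0432), but at 4.09 and 3.37 it lay below the background mean in both groups. ENO1, DDIT4 and ANKRD37 differed by 0.60, 0.71 and 0.61 without passing (adjusted p = 0.0922, 0.0659 and 0.14), values close to the 0.73 of NDRG3. The other genes of the list that did not pass differed less, by 0.11 to 0.28 (adjusted p between 0.415 and 0.882). The gene at 0.28 read 19.86 to 19.93 titled 23 Pa CSS, at or near the table maximum of 19.93, which may limit its difference. ENO1 passed at 1.05 as the mean of its transcript clusters (adjusted p = 0.0355) and with a prior that follows signal (adjusted p = 0.0148). DDIT4 passed with that prior (adjusted p = 0.0247) and among transcript clusters above the median signal (adjusted p = 0.0422). ANGPTL4, BNIP3L and KDM3A lost their calls without at least 6 of the 8 single samples, and without moderation of the spread 7 of the 28 rose.

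The list's median in single samples, relative to the mean titled no CSS, was 1.27, 1.13, 1.56 and 1.42 in replicates 1 to 4 titled 23 Pa CSS. In those titled no CSS it was 0.132, 0.0749, 0.078 and −0.224. NDRG1 thus shared with the list its highest and lowest sample titled no CSS, replicates 1 and 4, which were also the extremes of the hybridisation controls. Among the samples titled 23 Pa CSS the list was highest in replicate 3, where NDRG1 was close to its lowest.

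Among genes listed as regulators of NDRG transcription, 2 of 17 measured rose, 0 fell and 15 did not pass (11.8% called, against 2.32% of all genes), with a median of 0.347. EPAS1, which encodes the hypoxia-inducible factor subunit HIF-2 alpha, averaged 8.55 ± 0.264 titled 23 Pa CSS and 7.06 ± 0.318 titled no CSS (SD, n = 4 each). The difference was 1.49 (limma adjusted p = 0.011). HIF1A, the related subunit regulated mainly at the protein level, averaged 17.51 ± 0.362 titled 23 Pa CSS and 17.90 ± 0.125 titled no CSS, a difference of −0.39 that did not pass (adjusted p = 0.386). Their shared partner ARNT differed by 0.45 (adjusted p = 0.339).

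MYC, a repressor of NDRG1, rose as well, by 0.93 (limma adjusted p = 0.0477), with means of 6.98 ± 0.38 titled 23 Pa CSS and 6.05 ± 0.172 titled no CSS (SD, n = 4 each). That call was lost without any 1 of the 8 samples, with adjusted p between 0.05 and 0.133, and on arrays centred on hybridisation controls (0.62, adjusted p = 0.128). Its relative MYCN differed by 0.47 (adjusted p = 0.521). EGR1, an activator, was variable, at 14.57 ± 0.689 titled 23 Pa CSS and 13.75 ± 0.387 titled no CSS, and differed by 0.82 (adjusted p = 0.235). The transcription factor SP1 differed by 0.43, and the DNA methyltransferases DNMT3A and DNMT3B by 0.71 and −0.62, with adjusted p between 0.161 and 0.217.

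**Figure D4:**
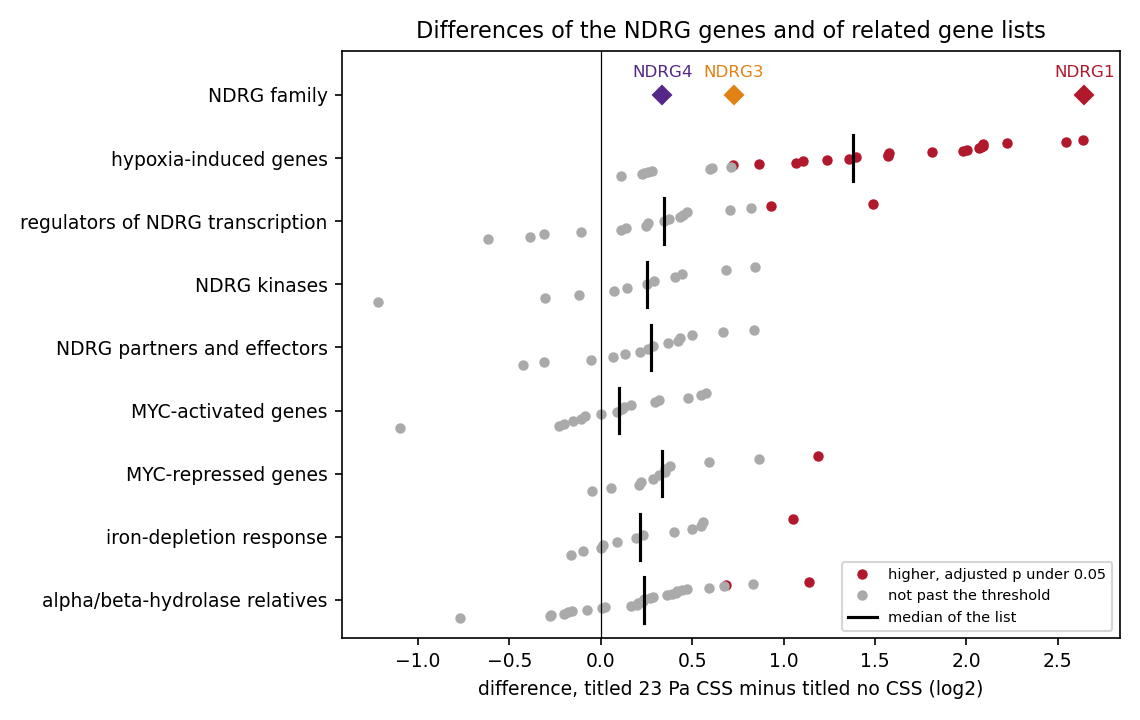
Difference between titles in log2 units (horizontal axis) for the NDRG members (diamonds) and each measured gene of 8 related lists (circles, red where higher at an adjusted p under 0.05, grey otherwise), with list medians as black bars. The hypoxia-induced genes have a median of 1.38 and 20 of 28 red circles, and no other list has more than 2.

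Kinases that act on NDRG proteins, with their upstream kinases and complexes, did not pass: 0 of 11 by limma, where 2.32% of all genes were called. SGK1 averaged 11.04 ± 0.417 titled 23 Pa CSS and 10.64 ± 0.288 titled no CSS, a difference of 0.40 (SD, n = 4, adjusted p = 0.444). GSK3B differed by −0.12 (adjusted p = 0.773), and its paralogue GSK3A by 0.68 (adjusted p = 0.227). RICTOR, a scaffold of the complex that activates SGK1, differed by −1.22 (adjusted p = 0.132), or by −0.29 as the mean of its transcript clusters (adjusted p = 0.532), and PDPK1, which phosphorylates SGK1, by 0.84 (adjusted p = 0.167).

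Of 14 measured partners and effectors of NDRG proteins 0 passed by limma, where 2.32% of all genes were called. The receptors EGFR and MET differed by 0.84 (adjusted p = 0.118) and 0.50 (adjusted p = 0.183), and PPP2R1A, a subunit of phosphatase PP2A, by 0.67 (adjusted p = 0.294). The list's median was 0.272.

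MYC-activated genes gave 0 calls among 16 by limma, against 2.32% of all genes, with a median of 0.102, near that of all genes. The nucleolar proteins NOP58 and FBL went opposite ways, at −1.10 (adjusted p = 0.0803) and 0.57 (adjusted p = 0.145). Of 12 genes other than NDRG that MYC represses, 1 rose (8.33%, against 1.36% of all genes): TXNIP, an inhibitor of thioredoxin and of glucose uptake (1.19, adjusted p = 0.0216). GADD45A, a stress gene, and CDKN1A, a cell cycle inhibitor, differed by 0.86 and 0.59 (adjusted p = 0.0732 and 0.148). The 12 genes had a median of 0.334. CEBPA lay below the background mean in both groups, at 3.52 and 3.17.

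Of 12 genes of iron handling, tested because NDRG1 also responds to iron loss, 1 rose, 8.33% against 1.36% of all genes. It was FTL, the ferritin light chain (16.90 ± 0.239 titled 23 Pa CSS and 15.85 ± 0.202 titled no CSS, SD, n = 4, limma adjusted p = 0.0206). The transferrin receptor TFRC, which cells raise when iron is low, differed by 0.55 (adjusted p = 0.119), or by 0.27 as the mean of its transcript clusters (adjusted p = 0.529), and the iron sensor ACO1 by 0.50 (adjusted p = 0.2). HMOX1, which degrades heme, was 0.56 higher without passing (adjusted p = 0.275). It lay near background, at 4.69 titled 23 Pa CSS and 4.13 titled no CSS. The list's median was 0.213.

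Proteins with the same fold as the NDRG family were taken as a structural comparison. Of 28 measured, 2 rose and 26 did not pass (7.14% higher, against 1.36% of all genes), with a median of 0.235 against 0.0938 over all genes. These were EPHX1, an epoxide hydrolase of xenobiotics (1.14, limma adjusted p = 0.0215), and the lipase ABHD2 (0.68, adjusted p = 0.0437). ABHD17A, ABHD12 and ABHD4 differed by 0.84, 0.67 and 0.59 (adjusted p = 0.0726, 0.118 and 0.144). No gene of this list reached the 2.65 of NDRG1. TXNIP, EPHX1 and ABHD2 lost their calls without 6, 5 and 8 single samples, and FTL without 4. Without moderation of the spread 0 genes of the regulator, MYC-repressed and iron lists passed, and 1 of the hydrolase relatives did.

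Markers were read because the NDRG genes differ between cell types of the brain. Of all genes 2.32% were called in either direction, so 0 calls in lists of 5 to 7 genes do not show stable levels. VIM, NES, CD44, FN1 and LGALS1, typical of glioblastoma lines, all lay above background, and 0 of 5 passed. Their summed signal on the log2 scale was 18.41 to 18.63 titled 23 Pa CSS and 17.94 to 18.19 titled no CSS. Of 7 astrocyte markers 0 passed, with S100B at 14.88 and 14.91 and GFAP near background at 4.58 and 4.30. The summed signal of 6 neuronal markers was 10.55 to 11.38 titled 23 Pa CSS and 11.47 to 12.42 titled no CSS, and 0 passed. That neuronal sum is mostly MAP2 and SYT1, which differed by −1.13 and −1.09 (limma adjusted p = 0.0741 and 0.0995). SNAP25 differed by −0.50, whereas RBFOX3, SYN1 and STMN2 differed by 0.16, 0.43 and 0.10. Of 5 markers of oligodendrocytes and Schwann cells 0 passed, with SOX10 at 13.60 and 13.26 and MBP below background in both groups. Of 7 microglial and macrophage markers 1 rose, CD68, which other cells carry in lysosomes (12.73 titled 23 Pa CSS and 11.25 titled no CSS, limma adjusted p = 0.0132). The microglial receptor CX3CR1 lay below background at 3.70 and 3.64. Summed, these 7 gave 12.22 to 13.27 titled 23 Pa CSS and 11.21 to 11.48 titled no CSS. This sum is almost wholly CD68, since no other marker of that list averaged above 5.59 in either group. The 6 endothelial markers gave 6.61 to 6.92 titled 23 Pa CSS and 6.67 to 6.82 titled no CSS, and 0 passed. The part of these markers in the NDRG values was not tested.

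**Figure D5:**
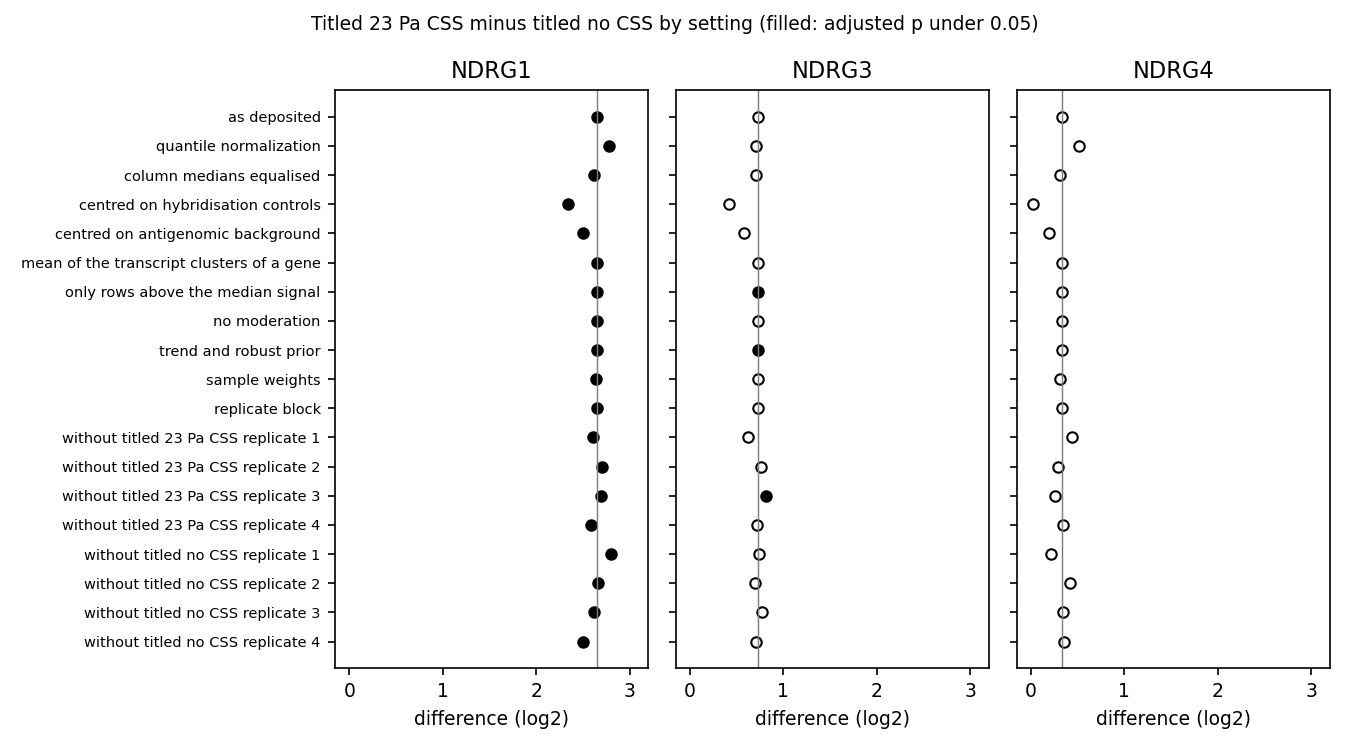
Difference of NDRG1, NDRG3 and NDRG4 between titles (horizontal axes, log2 units) with the values as deposited and under 18 other settings (rows), filled where the adjusted p is under 0.05. NDRG1 is filled throughout and lies between 2.33 and 2.80, NDRG3 is filled under 3 of the 18 and NDRG4 under none.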

How the data were processed

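The authors deposited log2 signal per transcript cluster for 8 arrays, made with Transcriptome Analysis Console per the submitters' processing notes. Summarisation, normalization and genome build are not given in the sources used here. The series design gives the array as Human Transcriptome Array 2.0, whereas rows were named through the annotation of another platform record. Of 138745 rows, 2995 controls were set aside and 135750 tested. Symbols were updated by Entrez identifier, and the row with the highest mean stood for a gene.

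Groups were compared with limma 3.58.1 (R 4.3.3, lmFit and eBayes, 6 residual and 5.28 prior degrees of freedom), adjusted over all rows, with no filter. The code was tested on simulated data. The labels do not say whether replicates were separate cultures, so p-values cover only the spread of these 4 samples per group, which may be technical. The number of arrays limits the precision.

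The members and the 8 gene lists were chosen with earlier results of these data known. From each list the text names every gene that passed, or the 3 largest and 3 smallest where over 6 passed, up to 3 others with the smallest p, and 9 regulators and kinases whatever their value, of which 1 is not reported here. A planned permutation test of NDRG1 against the other members is not reported, because the difference of NDRG1 was known. Alternatives were other scalings, spread models, a signal filter, means over a gene's rows, a replicate block and leaving out each sample. Plots used matplotlib 3.10.9 (Python 3.11.15).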

Additional observations from a re-analysis of the deposited data

Results flagged for a closer look

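No NDRG member had a sample far from the other 3 of its group. In 8 of 88 groups of named genes 1 sample lay far from the others, beyond Dixon's 95% critical value, where chance flags about 1 in 20. Titled 23 Pa CSS replicate 3 was high for ADM (9.58, the others 9.35 to 9.38), BNIP3L (15.47, the others 14.82 to 14.86) and KDM3A (11.45, the others 10.79 to 10.89). Titled 23 Pa CSS replicate 1 was high for ALDOC (12.81, the others 12.33 to 12.39) and FTL (17.26, the others 16.75 to 16.82). Titled no CSS replicate 1 was high for HIF1A (18.08, the others 17.83 to 17.84) and CEBPA (3.37, the others 3.10 to 3.13). Titled no CSS replicate 4 was low for CDKN1A (10.21, the others 10.68 to 10.78).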

How the results depend on the processing

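NDRG1 kept its direction and its call under all 18 alternatives, with differences of 2.335 to 2.80 and adjusted p of 0.00042 to 0.0458. NDRG3 kept its direction, at 0.42 to 0.81, and passed under 3: among rows above the median signal (0.73, adjusted p = 0.0369), with a trend and robust prior (0.73, adjusted p = 0.0203) and without titled 23 Pa CSS replicate 3. NDRG3 ranged from 0.62 to 0.81 when single samples were left out. NDRG4 kept its direction, at 0.02 to 0.52, and passed under none. Both NDRG1 comparisons within samples kept their direction, and no gene named from the 8 lists turned its direction under the alternatives run. Markers and nearest genes outside these lists were not followed. Centring on hybridisation controls would turn any rise under 0.311, such as the 0.25 of MIR3945.

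Same-numbered samples of both titles did not deviate together (correlations −0.0791 to −0.0178, across transcript clusters), so the numbers were not taken as pairs. With a replicate block, NDRG1 kept its call (adjusted p = 0.0171), 302 transcript clusters were higher and 1027 lower, against 789 and 1938, and 1 regulator and 1 hydrolase relative were higher.

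Centring on hybridisation controls moved the median difference over all rows to −0.284, against 0.0266 as deposited, and gave 373 higher and 8208 lower transcript clusters. It lowered every difference by 0.311, and with it RICTOR (−1.53) and DNMT3B (−0.93) passed. It left 1 regulator and 1 hydrolase relative higher, and made 1 regulator, 1 NDRG kinase, 1 MYC-activated gene and 1 hydrolase relative lower. Centring on antigenomic background gave 3697 lower transcript clusters, 1 regulator and 1 hydrolase relative higher and 1 MYC-activated gene lower. Rows above the median signal alone gave 1332 higher and 3038 lower transcript clusters and 2 MYC-repressed genes higher, of 67875 tested, and quantile normalization also gave 2 MYC-repressed genes. GADD45A and ABHD17A passed under both of these. NOP58 passed under both centrings and with the trend and robust prior. A trend and robust prior gave 1197 higher transcript clusters, 1 regulator higher and 1 MYC-activated gene lower. Without moderation 60 transcript clusters were higher and 23 lower, with 7 hypoxia-induced genes, 1 hydrolase relative and 0 regulators, MYC-repressed or iron genes higher.

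Leaving out any 1 of the 8 samples moved the counts of transcript clusters, which ranged from 145 to 1283 higher and 266 to 4077 lower, the highest without titled 23 Pa CSS replicate 3 and the lowest without titled no CSS replicate 4. Higher regulators were 1 each time, down from 2, since MYC was lost. Higher hydrolase relatives, MYC-repressed genes and iron genes each ranged from 0 to 1, as did lower NDRG kinases and MYC-activated genes. The causes of these shifts were not tested.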
